A study of Gallus gallus with 4 samples.

Results

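The annexins described here were ANXA1, ANXA2, ANXA5, ANXA6, ANXA7 and ANXA11, chosen by gene symbol, with earlier results of these data already known. They were represented by 11 of the 38535 probe sets, taken as every probe set whose platform annotation gives 1 of these symbols alone. The data were 4 expression arrays of embryonic tibial cartilage from white leghorn chickens, taken on embryonic day 12, called E12 (Hamburger-Hamilton stage 38), or on day 14, called E14 (stage 40). At each stage 1 array held purely transient cartilage of the epiphysis (TC), which is later replaced by bone, and 1 array held articular cartilage dissected together with some transient cartilage (TC+AC). Many dissected pieces went into each RNA sample, how many is not stated, no treatment is labelled, and no group had a second array, so the spread between pools is unknown. The TC+AC samples are a mixture by dissection, and in such bulk tissue fewer cells of a type and less RNA per cell cannot be told apart.

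Annexins bind acidic phospholipids in the presence of calcium through a conserved core, while their N-terminal regions differ and bind different partners. In growth cartilage, annexins A2, A5 and A6 are known as components of matrix vesicles, the membrane particles that hypertrophic chondrocytes release and in which mineral first forms. ANXA5 was purified from chick chondrocytes as a collagen-binding membrane protein, anchorin CII. The comparison of TC+AC with TC asks which genes separate the cartilage that persists at the joint from the cartilage that mineralizes, and the pair of stages shows how each tissue changed over that time.

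Unless stated otherwise, all values below are intensities after quantile normalization of the 4 arrays, on the linear scale unless log2 is stated. Levels are set against each other within a probe set, except against background and in the summed levels of gene lists. Those sums add different probe sets, and the brightest weigh most in them. As background served the level that 95% of the 541 probe sets for viruses did not exceed, between 15.6 and 24.6 depending on the array. Of the 11 annexin probe sets, 10 were above background on all 4 arrays and 1 of ANXA11 was below it on all 4. Where a gene had several probe sets, the one with the highest mean log2 level stood for the gene. The TC+AC E14 array stood apart from the others: it was the dimmest as deposited, with a median of 13.1 against 20.6 to 23.1, and its 3' over 5' ratio of the beta-actin probe sets was 7.48 against 1.99 to 4.01. The same ratio for the control gene EF1a was 3.97 against 1.45 to 1.64. For the control gene GAPDH it was 1.59, close to the 1.18 to 1.55 of the other arrays. The part of RNA quality in the E14 differences was not tested, and the E14 differences of the annexins are therefore given beside their E12 differences. The E12 differences do not compare the TC+AC E14 array, but the quantile normalization before them drew on all 4 arrays. The cartilage genes COL2A1 and COL9A1 read 2916 or more on every array. The summed level of 16 cartilage genes was 22129 in TC E12, 17578 in TC+AC E12, 73142 in TC E14 and 32522 in TC+AC E14.

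ANXA5, the collagen-binding annexin of matrix vesicles, had its highest level in TC at E14. Its single probe set read 1032 in TC E12, 947 in TC+AC E12, 3200.03 in TC E14 and 900.15 in TC+AC E14. Of the 4 arrays 3 thus lay close together, and TC E14 stood above them. At E12 the log2 difference of TC+AC minus TC was -0.12, and at E14 it was -1.83, a 3.55-fold lower level in TC+AC. From E12 to E14 the level in TC was 3.10-fold higher, a log2 change of 1.63, and in TC+AC the change was -0.07. Between single arrays there is no test. Among the 7805 genes tested the E14 tissue difference was at the 4.47th percentile and the change in TC at the 97.55th.

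ANXA11, an annexin with a long N-terminal region that binds the calcium sensor ALG-2, resembled ANXA5 in being highest in TC at E14 but differed from it at E12. Its brightest probe set read 766 in TC E12, 1218 in TC+AC E12, 1963 in TC E14 and 832 in TC+AC E14. TC+AC was thus above TC at E12 and below it at E14, the log2 difference being 0.67 at the earlier and -1.24 at the later stage. A second ANXA11 probe set read 465, 750.3, 2570 and 451 in the same order. That probe set gave a log2 difference of 0.69 at E12 and one of -2.51 at E14, and a log2 change in TC of 2.47 against 1.36 on the brightest. Both detected ANXA11 probe sets therefore had the same order of signs, with a larger E14 difference on the second. The third probe set was below background on all arrays and gives no difference.

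ANXA1, which is known for limiting inflammation and for binding S100A11, had the opposite pattern at E14. Its single probe set read 409 in TC E12, 723 in TC+AC E12, 202 in TC E14 and 591 in TC+AC E14. After quantile normalization both TC+AC arrays lay above both TC arrays. As deposited they did not, as TC+AC E14 read 282 and TC E12 read 454.5. How many of all genes had both TC+AC arrays above both TC arrays was not counted. The TC+AC level was 1.77-fold higher at E12 and 2.93-fold higher at E14, as log2 differences 0.82 and 1.55. From E12 to E14 the log2 change was -1.02 in TC and -0.29 in TC+AC. The leukocyte sum was lowest in TC E14 as ANXA1 was, and so were the muscle, endothelial and red cell sums given further down. The sums of fibroblast and tendon genes and of joint genes were lowest in TC E12. Their brightest genes, the collagen gene COL1A1 and the joint gene FRZB, weigh most in those 2 sums. The summed level of 13 leukocyte genes was 1442 in TC E12, 1526 in TC+AC E12, 728 in TC E14 and 1475 in TC+AC E14. In that list 10 genes were bright enough to test and none of them passed for tissue (limma), and the defining gene PTPRC read between 17.2 and 23.4, close to background. Below background were 2 of the 13 genes in TC E12, 2 in TC+AC E12, 1 in TC E14 and 4 in TC+AC E14. The complement gene C1QB had the largest E14 tissue difference of the leukocyte list, a log2 difference of 2.998 against 0.26 at E12. Whether these cells had a part in the ANXA1 differences was not tested.

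**Figure D1:**
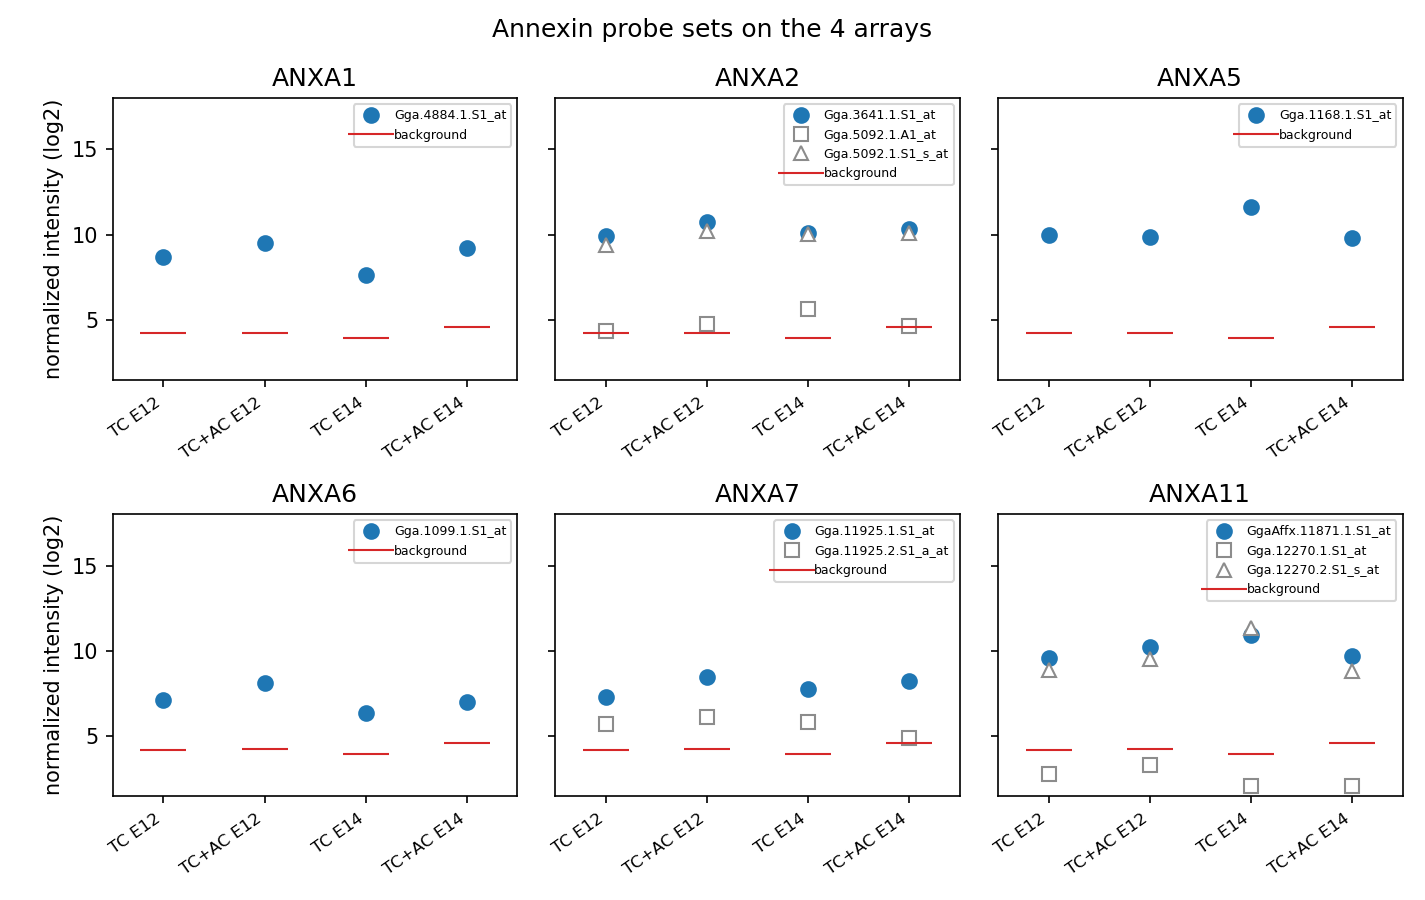
Normalized log2 intensity of every annexin probe set (vertical axis) on the 4 arrays (horizontal axis), 1 panel a gene. Filled blue circles are the brightest probe set of a gene, open grey symbols are its other probe sets, and red bars are the background of each array; ANXA5 and ANXA11 are highest in TC E14, where ANXA1 and ANXA6 are lowest.

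ANXA2, which forms a complex with S100A10 and binds plasminogen at the cell surface, varied least of the 6 by its brightest probe set. That probe set read 964 in TC E12, 1685 in TC+AC E12, 1118 in TC E14 and 1291 in TC+AC E14. All 4 levels lay within 0.81 on the log2 scale, TC+AC was 1.75-fold above TC at E12, and the E14 pair differed by 0.21. The second gave log2 differences of 0.83 and 0.00, and its change in TC was 0.67 against 0.21 on the brightest. The third lay just above background in TC E12 (20.6) and in TC+AC E14 (25.3) and gave 0.40 at E12 and -0.98 at E14. The 3 probe sets therefore shared the higher TC+AC level at E12 and did not share a direction at E14.

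ANXA6, a membrane-organizing annexin with a longer core than the others, was higher in TC+AC than in TC within each stage. Its single probe set read 139 in TC E12, 284 in TC+AC E12, 83.7 in TC E14 and 129 in TC+AC E14. The TC+AC level was 2.04-fold higher at E12 and 1.55-fold higher at E14. Each E14 level lay below the E12 level of the same tissue, with log2 changes of -0.73 in TC and -1.13 in TC+AC. By the brightest probe sets after quantile normalization, ANXA6 was the only one of the 6 at least 2-fold lower at E14 in TC+AC. Of all tested genes 7.92% were. A dimmer probe set of ANXA7 was 2.30-fold lower there. As deposited, the 6 changes in TC+AC ran from -1.48 for ANXA5 to -2.53 for ANXA6 (log2), with a median of -1.34 over all tested genes.

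ANXA7, known as synexin from its role in the fusion of secretory granules, read 156 in TC E12, 350.3 in TC+AC E12, 223 in TC E14 and 304 in TC+AC E14 on its brightest probe set. On these normalized values both TC+AC arrays lay above both TC arrays. Within a stage TC+AC was 2.24-fold higher at E12 and 1.36-fold higher at E14. As deposited, TC+AC E14 read 144.7, below TC E12 (170.8) and TC E14 (253.1). How many of all genes had both TC+AC arrays above both TC arrays was not counted. After quantile normalization the dimmer probe set read 54.2 in TC E12, 69.9 in TC+AC E12, 58.4 in TC E14 and 30.4 in TC+AC E14. It gave a log2 difference of 0.37 at E12 and -0.94 at E14, so the E14 direction of ANXA7 depends on the probe set.

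Side by side, 5 of the 6 annexins were higher in TC+AC than in TC at E12, all but ANXA5. Their E12 log2 differences ran from -0.12 to 1.17 with a median of 0.81, against a median of 0.00 over all tested genes. At least 2-fold higher at E12 were 2 of 6, ANXA6 and ANXA7, where 4.46% of tested genes were. At E14 the differences ran from -1.83 for ANXA5 to 1.55 for ANXA1, with a median of 0.33 against 0.05 over all tested genes. That median lies between ANXA2 (0.21) and ANXA7 (0.45), whose E14 direction differed between probe sets and between scalings. At least 2-fold lower in TC+AC at E14 were ANXA5 and ANXA11, where 15.6% of tested genes were, and at least 2-fold higher was ANXA1, where 20.3% were. An E14 difference of this size was thus common among all genes, more so than at E12.

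**Figure D2:**
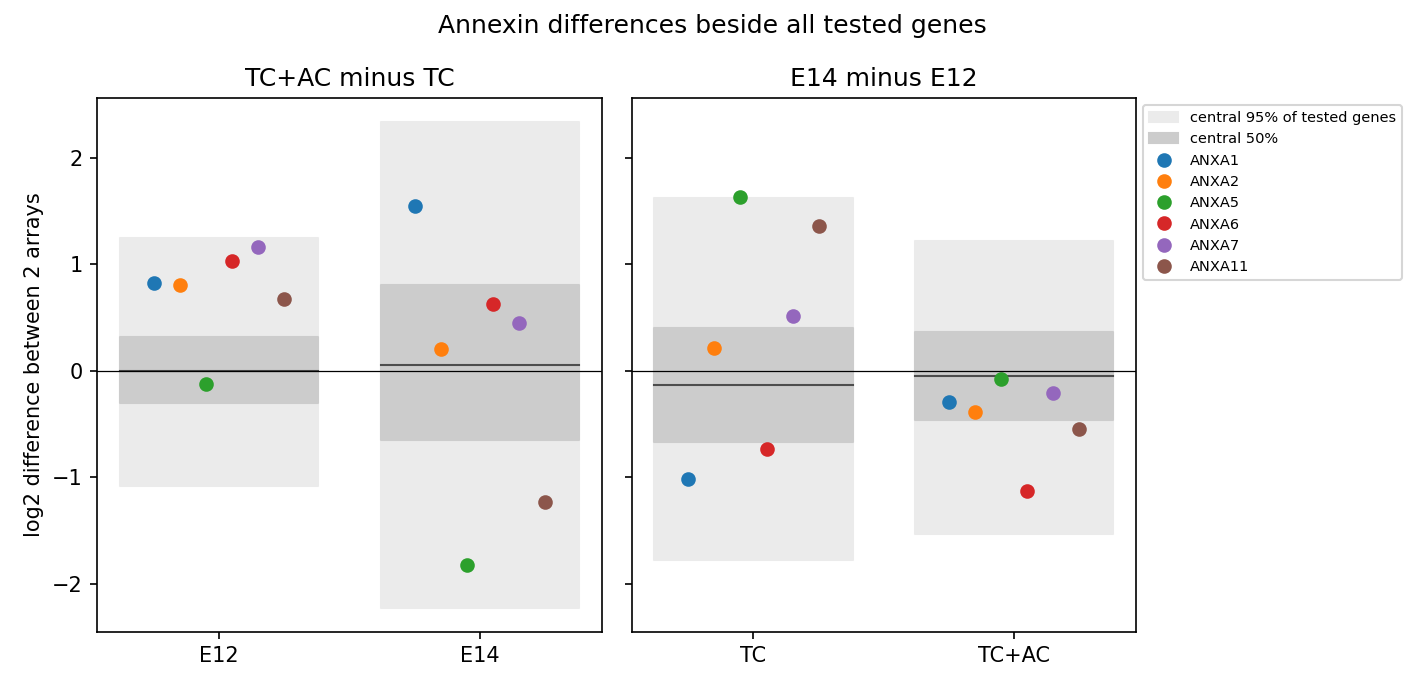
Log2 differences between pairs of single arrays (vertical axis) for the 6 annexins, by tissue at each stage (left) and by stage in each tissue (right). Points are the annexins, the light and dark bands hold the central 95% and 50% of the 7805 tested genes and the dark line is their median; ANXA5 lies at the upper edge of the 95% band for the change in TC and ANXA7 is highest at E12.

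From E12 to E14 in TC, 4 of the 6 annexins had a higher and 2 a lower level. Their median log2 change was 0.36 against -0.13 over all tested genes. ANXA5 and ANXA11 were at least 2-fold higher, where 8.3% of tested genes were, and ANXA1 was at least 2-fold lower, where 14.1% were. In TC+AC all 6 changes were below 0, between -0.07 for ANXA5 and -1.13 for ANXA6. Their median was -0.34, and that of all tested genes was below 0 too (-0.05). Among all tested genes the 6 lay between the 5.85th percentile (ANXA6) and the 48.33rd (ANXA5). Each of these changes uses the TC+AC E14 array, whose beta-actin and EF1a ratios stood apart. The tissue comparisons and the stage comparisons use the same 4 arrays.

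None of the 6 annexins passed the test for tissue, by limma's moderated linear model with tissue and stage as terms and Benjamini-Hochberg adjustment at 0.05 over the 7805 genes. In that fit 1.47% of tested genes passed. ANXA1 came nearest, with a fitted log2 difference of TC+AC minus TC of 1.19 ± 0.50 (SE, 4 arrays, 95% interval 0.16 to 2.21) and adjusted p = 0.27 from limma. Its unadjusted p from limma was 0.025, the only one of the 6 under 0.05. Among the 7805 tested genes 1046 were under 0.05. ANXA5 had -0.98 ± 0.52 (interval -2.04 to 0.09, limma adjusted p = 0.43). ANXA6 had 0.83 ± 0.50 and ANXA7 0.81 ± 0.50, with limma adjusted p of 0.48 and 0.50. ANXA2 had 0.51 and ANXA11 -0.28, with limma adjusted p of 0.73 and 0.88. The intervals of all 6 reach beyond a 2-fold difference, that of ANXA11 running from -1.36 to 0.80. Without the TC E12 array, and with no stage term, ANXA1 (1.70, limma adjusted p = 0.037) and ANXA5 (-1.79, adjusted p = 0.027) passed, among 883 genes in all; without any other single array none of the 6 did. In that fit TC is the TC E14 array alone, which is assumed to vary as the 2 TC+AC arrays do, and the spread between those includes their stage difference.

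For stage none of the 6 passed either, where 0.256% of tested genes did. ANXA6 had the largest fitted change from E12 to E14, -0.93 ± 0.50 (interval -1.95 to 0.08, limma adjusted p = 0.79), followed by ANXA5 with 0.78 ± 0.52 (interval -0.29 to 1.85, limma adjusted p = 0.91). ANXA1 had -0.65, ANXA11 0.40, ANXA7 0.15 and ANXA2 -0.09. No unadjusted p for stage (limma) was under 0.05 among the 6, where 539 of the 7805 tested genes were. The fit has 1 residual degree of freedom a gene, and its error is mostly a variance shared across all genes. That residual is the change of the tissue difference between the stages, mixed with any spread between pools. The SE and intervals are therefore not a measure of the spread between pools alone. For ANXA5 and ANXA11 the fitted tissue value is a mean of unlike differences at E12 and E14, and the E14 difference minus the E12 difference, -1.71 for ANXA5 and -1.91 for ANXA11, cannot be tested with 1 array a group.

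**Figure D3:**
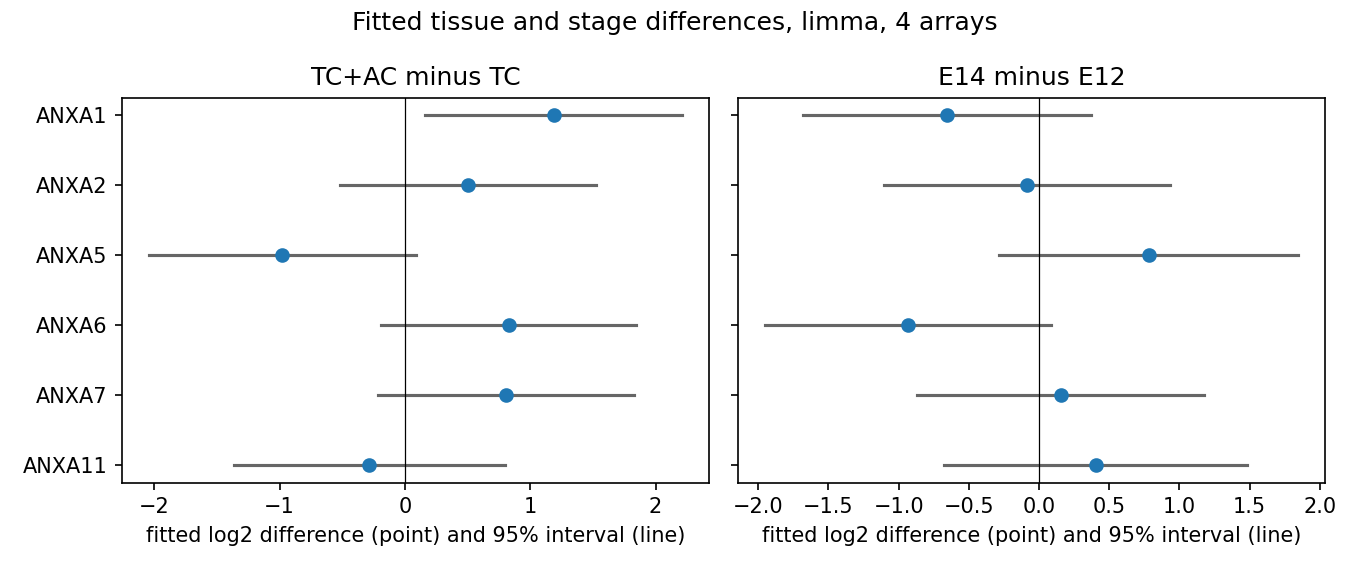
Fitted log2 differences (points) with 95% intervals (lines) of the 6 annexins from limma on 4 arrays, for tissue (left) and stage (right). The interval lies off 0 for ANXA1 in the tissue comparison alone, where 1046 of the 7805 tested genes had an unadjusted p under 0.05 (limma). None of the 6 passed after adjustment over all genes.

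The scaling of the arrays set the sign of several E14 differences. Over the tested genes the median E14 tissue difference on the log2 scale was 0.05 after quantile normalization, -0.26 with arrays centred on their medians, -1.08 as deposited and -1.63 scaled on hybridization controls. As deposited, the E14 pair of ANXA5 read 2961 in TC and 444 in TC+AC and that of ANXA1 read 230 in TC and 282 in TC+AC. ANXA5 and ANXA11 were lower in TC+AC at E14 under all 4 scalings. The signs of ANXA1, ANXA2, ANXA6 and ANXA7 at E14 flipped under at least 1 scaling. Subtracting the median of all tested genes removes any constant of an array, so the other 3 scalings then give the same values by construction and only quantile normalization against them is a comparison. On that scale the E14 difference was -1.88 after quantile normalization and -1.66 otherwise for ANXA5, -1.29 and -1.23 for ANXA11, and 1.498 and 1.38 for ANXA1. ANXA2, ANXA6 and ANXA7 were above 0 by both. At E12 the sign of ANXA5 alone flipped (0.08 as deposited), and the other 5 were higher in TC+AC under each scaling.

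**Figure D4:**
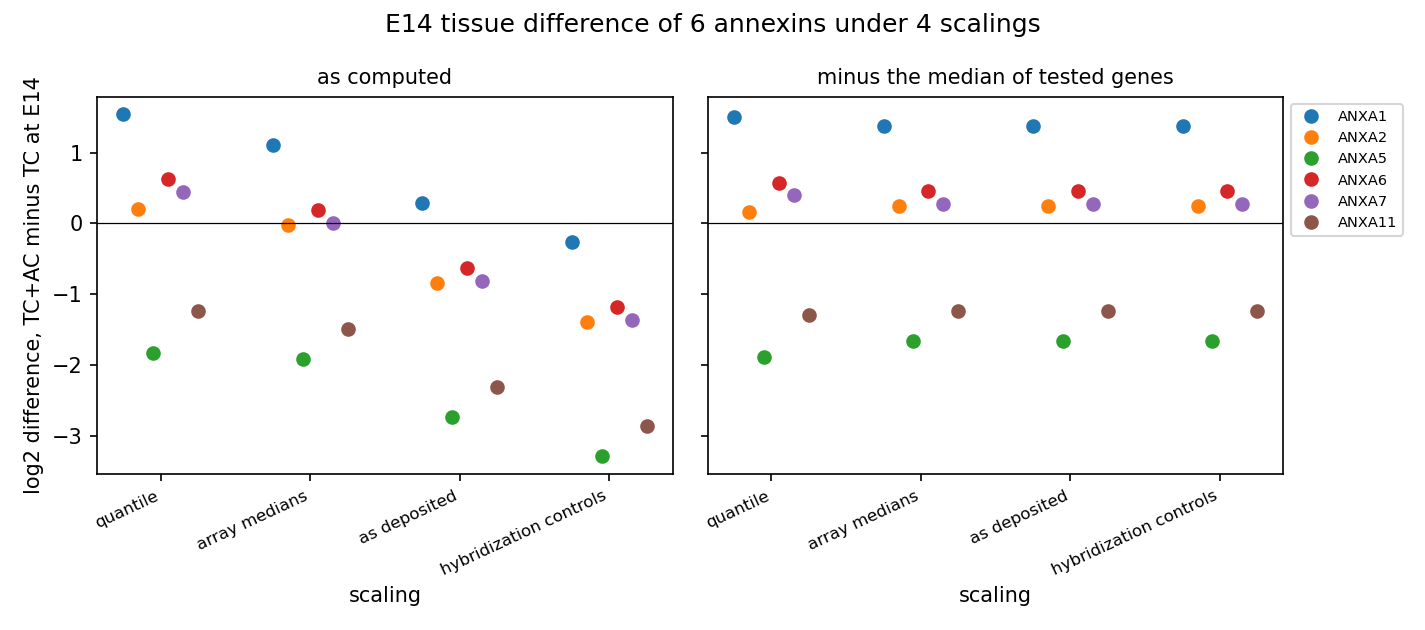
Log2 difference of TC+AC minus TC at E14 (vertical axis) under 4 scalings (horizontal axis), as computed (left) and after subtracting the median of the tested genes (right). Points are the brightest probe sets of the 6 annexins. On the right the last 3 scalings are equal by construction, so the panel compares quantile normalization with 1 other set of values, in both of which ANXA1 is highest and ANXA5 lowest.

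The closest patterns to each annexin were sought over the 4 arrays by the root mean square difference of centred log2 levels, for the 5 annexins that ranged over at least 1 log2 unit. For ANXA5 they were NR2C2, a nuclear receptor gene (0.032), DPAGT1, which starts N-glycan assembly (0.033), and RECK, a membrane-anchored inhibitor of matrix proteases (0.067). For ANXA7 they were FBN2, which encodes the microfibril protein fibrillin-2 (0.022), SOD3, an extracellular superoxide dismutase gene (0.029), and CLIC6 (0.052). For ANXA1 they were RNASEK, PASK and MED27, for ANXA6 OGG1, SLC25A21 and C1orf43, and for ANXA11 FDX1, RAB28 and LONRF1, at 0.045 to 0.105. With only 4 arrays such matches are plentiful: within 0.25 lay 120 of 7797 genes for ANXA5 and 288 for ANXA1. Among the annexins the nearest pairs were ANXA2 with ANXA7 (0.19), ANXA1 with ANXA6 (0.36) and ANXA5 with ANXA11 (0.40), and the farthest were ANXA1 and ANXA5 (1.43).

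The array carried 4 further annexin genes from the list of other family members, and none gave a call. ANXA4 read 154 in TC E12, 210.2 in TC+AC E12, 107 in TC E14 and 111 in TC+AC E14, with a fitted tissue difference of 0.25 ± 0.50 (log2, limma adjusted p = 0.88). ANXA8L1 read 41.4, 45.3, 49.2 and 71.0 in the same order, with 0.33 ± 0.50 (limma adjusted p = 0.84). ANXA10 lay below background on all 4 arrays and ANXA13 on 2, and both were too dim to be tested.

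Of 15 tested genes for annexin partners and ligands, 1 was lower in TC+AC and 0 were higher (limma). The median fitted tissue difference was 0.26 against 0.02 over all tested genes. The 1 was COL10A1, whose product, collagen X, is a ligand of ANXA5; its log2 difference was -3.65 at E12 and -3.61 at E14. COL10A1 was thus low in TC+AC at both stages, whereas ANXA5 had -0.12 and -1.83. The S100 genes and PDCD6 are named for the proteins' binding to annexins, a choice made after their values were seen. S100A10, the partner of ANXA2, read 2883 in TC E12, 3876 in TC+AC E12, 1557 in TC E14 and 4073 in TC+AC E14 (0.91 ± 0.50, limma adjusted p = 0.44). S100A11, the partner of ANXA1, read 419, 394, 111 and 288 in that order (0.64 ± 0.51, limma adjusted p = 0.65). S100A6 read 2701, 4371, 1413 and 4755 (1.22 ± 0.51, limma adjusted p = 0.25). S100B, the other tested S100 gene, read 41.5, 27.2, 29.1 and 113 (0.68 ± 0.55, limma adjusted p = 0.66). S100A10, S100A11 and S100A6 were lowest in TC E14, as ANXA1 was, and S100B in TC+AC E12. None of the 4 passed. A lowest level in TC E14 was not particular to S100 genes, as SRI, RASA1, PLA2G4A and PEF1 of the same list had it too. The remaining tested genes of the list were lowest on other arrays. PDCD6, the gene of ALG-2, read 1183, 975, 1314 and 1228 (-0.19 ± 0.50, limma adjusted p = 0.92). It too was highest in TC E14, but its log2 change in TC was 0.15 against 1.36 for ANXA11.

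Of 16 tested genes of matrix vesicles and mineralization, 4 were lower in TC+AC and 0 were higher (limma), with a median fitted difference of -0.92. They were SMPD3, a neutral sphingomyelinase needed for mineralization, the matrix protein genes IBSP and SPP1, and COL10A1. All 4 had an E12 log2 difference of -3.22 or lower. The list as a whole had an E12 median of -0.53, and most of its tested genes lay below 0 at E12. Beside the 4, the lowest were DMP1 (-3.28), PHOSPHO1 (-2.82) and SLC20A2 (-1.29), which did not pass. The only tested genes above 0 at E12 were ANPEP (0.74), ENPP1 (0.71), MMP13 (0.68), MMP9 (0.56) and MMP2 (0.15). These genes are named here after their values were seen. At E12 ANXA5 differed by -0.12, ANXA2 by 0.81 and ANXA6 by 1.03, with no test of these against the list. CA2, a carbonic anhydrase gene of the same list picked after its values were seen, read 170.4 in TC E12, 129 in TC+AC E12, 1202 in TC E14 and 122 in TC+AC E14, with its highest level on the same array as ANXA5 (fitted tissue difference -1.86 ± 0.57, limma adjusted p = 0.10). The list moved both ways in TC from E12 to E14, with a median log2 change of 0.18 over its tested genes. Of the 4 that passed, SMPD3 (1.04) and COL10A1 (1.03) were higher in TC at E14. IBSP (-2.77) and SPP1 (-1.20) were lower there, as were DMP1 (-3.49), PHOSPHO1 (-1.36) and SLC20A2 (-0.50). ALPL, the gene of the vesicle phosphatase, was too dim to be tested.

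Markers of neighbouring tissues moved in several ways beside the annexins. The summed level of 12 hypertrophic genes was 8672 in TC E12, 1114 in TC+AC E12, 9513 in TC E14 and 1136 in TC+AC E14. Of its 9 tested genes 6 were called lower in TC+AC (limma). COL10A1, IBSP and SPP1 among them are the same genes already called in the list of matrix vesicles and mineralization, and COL10A1 also among the annexin partners. The summed level of 17 fibroblast and tendon genes was 39702, 44071, 40148 and 47708 in the same order of arrays, with 1 of 16 tested genes higher in TC+AC. That of 14 skeletal muscle genes was 1485, 1067, 287 and 850.3, that of 13 endothelial genes 1123, 874, 654 and 869, and that of 7 red cell genes, CA2 among them, 18082, 19166, 10282 and 18538, with 0 calls for tissue in each of these 3 lists (limma). Among the tested genes of each list, the largest E14 tissue differences (log2) were 3.81 for SCX among the fibroblast and tendon genes (1.57 at E12), -3.52 for COMP among the cartilage genes (0.08 at E12) and, after CA2 at -3.31 (-0.41 at E12), 3.20 for HBBR among the red cell genes (0.50 at E12), while those of TNNC2 (muscle), TIE1 (endothelium) and TPPP3 (joint) came from a TC E14 level below background and that of BMP6 (hypertrophic) from a TC+AC E14 level below it. The summed level of 14 joint genes was 2576, 3432, 4316 and 3751, and 3 of 12 tested genes were higher in TC+AC. FRZB, a gene of that list named after its values were seen, read 866, 951, 3010 and 1405. It thus made up most of the joint sum in TC E14. TC E14 had the lowest summed level of muscle, endothelial, red cell and leukocyte genes and the highest of cartilage and hypertrophic genes. Its hypertrophic sum was close to that of TC E12 (9513 against 8672), and the bright genes of that list moved both ways. From TC E12 to TC E14, COL10A1 went from 1895 to 3876 and PTH2R from 1947 to 2535. IBSP went from 1963 to 288, SPP1 from 808 to 351 and PANX3 from 1330 to 968. The median log2 change in TC of the 9 tested genes was 0.52. The joint sum of TC E14 was also the highest, most of it from FRZB. On the same array ANXA5 and ANXA11 were highest and ANXA1 and ANXA6 lowest. The part of these tissues in the annexin values was not tested.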

How the data were processed

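Total RNA (5 µg a sample, per the labels) was biotin-labelled and hybridized to 4 chicken arrays. The deposited values are linear intensities, 1 per probe set; their summary, background correction and scaling were steps not given in the sources used here. Platform annotation gave 1 gene symbol to 27178 probe sets, several to 177 and none to 11180. With R 4.3.3 and limma 3.58.1, 96 control probe sets were left out, 38439 were quantile normalized, floored at their 20th percentile (4.275) and taken to log2. The brightest probe set stood for each of 13009 genes, and the dimmest 40% of genes were left out, leaving 7805. limma's lmFit and eBayes fitted tissue and stage additively (prior degrees of freedom 27.0), adjusted over all 7805 genes; the script was tested on simulated data. Intervals are limma's 95%. The number of arrays limits the precision, and p-values rest on no separate measure of the spread between pools. Figures were drawn with matplotlib 3.10.9 in Python 3.11.15.

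The members and gene lists were chosen with earlier results of these data known. Named were all 6 annexins with every probe set, other annexins, list genes past the threshold (up to 4 a list), the 3 nearest patterns of each annexin that ranged over 1 log2 unit, and, in cell type lists, the marker with the largest E14 difference. In the lists, 144 entries matched a symbol, 4 a synonym in the RefSeq gene table of GRCg7b and 23 were not found under their names. Alternatives were other scalings, dim filters, a 5th-percentile floor, probe set summaries, no term for the other factor, and each array left out.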

Additional observations from a re-analysis of the deposited data

Results flagged for a closer look

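No group had enough arrays for a test of a stray sample. Opposite signs between 2 stages or 2 tissues are listed here; with 1 array a group, these differences between stages or tissues were not tested. ANXA11 had a log2 difference of TC+AC minus TC of 0.67 at E12 and -1.24 at E14. The log2 change of ANXA11 from E12 to E14 was 1.36 in TC and -0.55 in TC+AC. For ANXA5 it was 1.63 in TC and -0.073 in TC+AC. For ANXA7 it was 0.51 in TC and -0.21 in TC+AC, and for ANXA2 0.21 and -0.38.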

How the results depend on the processing

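On all 4 arrays, 0 of 108 annexin values under the 9 alternatives passed the threshold (limma), and 96 kept their direction. Many of the 96 could not turn. The dim filters, the floor, separate probe set fits and dropping the other factor's term left every fitted annexin value as it was. Averaging probe sets could not move ANXA1, ANXA5 or ANXA6, which have a single probe set. The 12 that turned all came from the other scalings or from averaged probe sets. As deposited, the stage changes were -0.074 for ANXA5, -0.53 for ANXA7 and -0.36 for ANXA11, with an all-gene median of -0.72. With arrays centred on their medians, ANXA7 had -0.22 and ANXA11 -0.046 for stage (median -0.40). Scaled on hybridization controls, the tissue differences were -0.32 for ANXA2, -0.093 for ANXA6 and -0.11 for ANXA7 (median -0.86) and the stage changes -0.23 for ANXA7 and -0.058 for ANXA11 (median -0.42). With probe sets averaged, the stage changes were 0.25 for ANXA2 and -0.20 for ANXA7, and the tissue differences of these genes 0.21 and 0.26. Leaving out each array in turn, which also drops the other factor's term, gave tissue differences of 0.68 to 1.70 for ANXA1, -1.79 to -0.16 for ANXA5, 0.26 to 1.40 for ANXA6, 0.31 to 0.70 for ANXA2, 0.55 to 1.06 for ANXA7 and -0.96 to 0.39 for ANXA11. The stage changes then ran from -1.43 to 0.12 for ANXA1, -0.49 to 0.32 for ANXA2, -0.13 to 1.69 for ANXA5, -1.45 to -0.42 for ANXA6, -0.43 to 0.74 for ANXA7 and -0.21 to 1.02 for ANXA11.

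Over all genes, 115 passed for tissue (58 higher, 57 lower) and 20 for stage (11 higher, 9 lower) by limma. For tissue the count was 32 as deposited (7 higher, 25 lower), 26 on hybridization controls (1 higher, 25 lower), 0 with no dim filter (715 at an unadjusted p under 0.05), 217 without the dimmest 60% of genes (140 higher, 77 lower), 29 from the mean of probe sets, 0 with every probe set fitted on its own (1753 unadjusted) and 12 without the stage term. Array centring gave 58 higher and 94 lower. For stage it was 0 as deposited (370 unadjusted), 68 with array centring (11 higher, 57 lower), 0 on hybridization controls (77), 0 with no dim filter (567), 32 without the dimmest 60%, 1 from the mean of probe sets, 0 per probe set (1173) and 0 without the tissue term (235). Leaving out single arrays gave 0 to 883 for tissue and 0 to 1 for stage. The causes were not tested. No paired analysis was possible because each group has 1 array; stage already stands as a term in the tissue comparison.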
